A study of Homo sapiens with 4 samples.

Results

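The MYC, MAX and MXD network was followed in LASCPC-01 cells treated with ketotifen or with PBS. Its members were the 10 rows of the deposited expression table whose symbol was MYCN, MYC, MYCL, MAX, MXD1, MXD3, MXD4, MXI1, MNT or MGA, out of 16376 rows in all, and all 10 symbols had a row. These human cells are a model of neuroendocrine prostate cancer, derived from benign prostate epithelium that was transformed with N-Myc, the product of MYCN, together with activated AKT1. The drug is an antihistamine of the H1 class that also stabilises mast cells, and the series title puts it forward as a possible treatment. The groups were 2 libraries of ketotifen-treated cells and 2 libraries of cells given PBS, all of day 3 and of a genotype labelled WT, with no dose in the labels. Polyadenylated RNA was sequenced, and expression was given as FPKM, fragment numbers scaled by gene length and library total. The letters A and B name the libraries, after the columns, and pair none between groups. The labels do not tell whether a group's libraries are separate cultures or repeats of one, so every p-value measures only how these libraries vary, and that may be technical.

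MYC proteins are transcription factors that bind E-box DNA only as dimers with MAX, through a basic helix-loop-helix leucine zipper, and mostly raise the transcription of growth genes. The MXD proteins, the related MXI1, and MNT compete for the same partner and the same sites, and recruit SIN3 and histone deacetylases to repress them. MGA is a very large MAX partner that belongs to a polycomb repressor complex. In neuroendocrine prostate cancer, N-Myc is known as a driver of the lineage.

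The E-box CACGTG is the preferred site of this network. It was sought in the promoters of the members themselves, together with ACGTG and GCGTG, the core letters of hypoxia response elements. The windows came from RefSeq (GRCh38.p14) and ran from 250 bases before to 50 after each annotated start. Both strands were searched, and ACGTG lies inside CACGTG, so an E-box counts under both. No window of MYC itself was used, and the other 9 members had 14 windows. CACGTG was in 2 of the 14, those of MXD4 and MNT, against 7.26% of 35116 windows of all genes. ACGTG was in 5 of the 14, against 21.4% of all windows, and GCGTG in 7 of the 14, against 36.5%. Shown first are the 2 windows with an E-box, then the single MYCN window, which holds none of these letters. The MXI1 window that holds both hypoxia core letters comes last. A window of MGA, not printed here, also holds both. Capitals mark the matches, on either strand. The windows lie at chr4:2262060-2262359 (MXD4, minus strand), chr17:2401011-2401310 (MNT, minus strand), chr2:15940300-15940599 (MYCN, plus strand) and chr10:110209981-110210280 (MXI1, plus strand), in GRCh38.p14.
MXD4: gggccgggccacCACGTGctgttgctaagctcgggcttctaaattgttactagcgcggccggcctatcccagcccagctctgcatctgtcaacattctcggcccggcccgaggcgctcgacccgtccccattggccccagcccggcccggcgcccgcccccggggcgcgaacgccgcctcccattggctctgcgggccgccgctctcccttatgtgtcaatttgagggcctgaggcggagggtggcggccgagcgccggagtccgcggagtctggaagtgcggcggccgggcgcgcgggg
MNT: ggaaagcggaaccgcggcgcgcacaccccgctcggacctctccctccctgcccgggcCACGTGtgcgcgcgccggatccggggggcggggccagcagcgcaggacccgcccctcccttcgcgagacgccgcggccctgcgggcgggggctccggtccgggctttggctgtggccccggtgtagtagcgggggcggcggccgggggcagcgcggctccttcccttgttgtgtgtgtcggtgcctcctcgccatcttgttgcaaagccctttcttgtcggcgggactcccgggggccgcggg
MYCN: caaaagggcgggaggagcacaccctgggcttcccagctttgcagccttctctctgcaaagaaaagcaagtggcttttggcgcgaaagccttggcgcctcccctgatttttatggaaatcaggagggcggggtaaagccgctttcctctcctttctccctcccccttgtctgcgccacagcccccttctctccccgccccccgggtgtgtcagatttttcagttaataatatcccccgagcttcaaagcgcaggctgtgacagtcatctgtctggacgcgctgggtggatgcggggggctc
MXI1: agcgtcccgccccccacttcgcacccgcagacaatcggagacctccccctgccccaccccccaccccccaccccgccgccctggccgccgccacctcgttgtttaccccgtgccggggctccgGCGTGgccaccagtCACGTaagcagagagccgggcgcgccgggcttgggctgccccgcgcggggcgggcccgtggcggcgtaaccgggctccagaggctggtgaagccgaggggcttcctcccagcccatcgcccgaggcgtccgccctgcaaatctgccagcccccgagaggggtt
These matches describe letters only, and the expression table does not show which start was used.

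The libraries were near alike. Reads were recovered from the steps of the FPKM values, exact only up to a common factor per gene. They summed to between 31154678 and 34812856 per library over the 10586 tested genes, those averaging 1 FPKM or more. A gene whose factor is above 1 is counted too low, so these sums are lower bounds. Correlations across genes ran from 0.9935 to 0.9976, and the lowest were those of PBS library B with the ketotifen libraries. PBS library A was about as near to the ketotifen libraries (0.9962 with A, 0.9959 with B) as to PBS library B (0.9961). Among the neuroendocrine markers INSM1, NCAM1 and UCHL1 were at 19.7 FPKM or more in every library, while CHGA and SCG2 were under 0.2 FPKM and SYP under 0.6 FPKM, so the labelled cell type rests on INSM1, NCAM1 and UCHL1 rather than on secretory granule genes. Summed levels of 5 fibroblast markers were 2.56 and 2.16 FPKM with ketotifen and 2.85 and 3.14 FPKM with PBS, nearly all COL1A1. Summed levels of 4 endothelial markers were under 0.23 FPKM in every library, and those of 4 measured immune markers were 3.05 and 3.18 FPKM with ketotifen and 2.85 and 4.14 FPKM with PBS, nearly all CD68. Their part in the results was not tested. Among the neuroendocrine markers NCAM1, a neural adhesion molecule, fell under voom only (voom adjusted p = 0.0168), at 44.4 and 43.9 FPKM with ketotifen and 52.0 and 51.2 FPKM with PBS. ENO2, neuron-specific enolase, at 2.07 and 1.6 FPKM with ketotifen and 2.76 and 3.10 FPKM with PBS, did not pass, nor did UCHL1 (limma adjusted p = 0.226).

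MYCN dominated the network. It was measured at 326.6 and 332.0 FPKM in ketotifen libraries A and B, against 369.7 and 386.5 FPKM in PBS libraries A and B. Among all genes this placed MYCN at rank 136 and 130 with ketotifen and at rank 111 and 103 with PBS. The next member, MXD4, had a mean level of 25.8 FPKM over the 4 libraries. MAX followed at 25.5 FPKM, and the libraries of these 2 genes overlapped. MXI1 came next at 19.4 FPKM, then MGA at 11.6 and MNT at 9.53 FPKM, whose ranges also overlapped. MXD3 had 5.59, MYCL 3.43, MXD1 2.68 and MYC 0.138 FPKM. Every other pair of neighbours in this order was apart in all 4 libraries. The order rests on the gene lengths behind the FPKM, which no source used here gives. With GENCODE 29 exon lengths in their place, an alternative chosen after the data were seen, MYCN stayed first and MYC last, but MAX (23.3 on that scale), MXI1 (20.7) and MXD4 (18.0) followed MYCN in that order, MNT stood above MGA and MYCL above MXD3. The plot of levels by library has the order by FPKM.

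**Figure D1:**
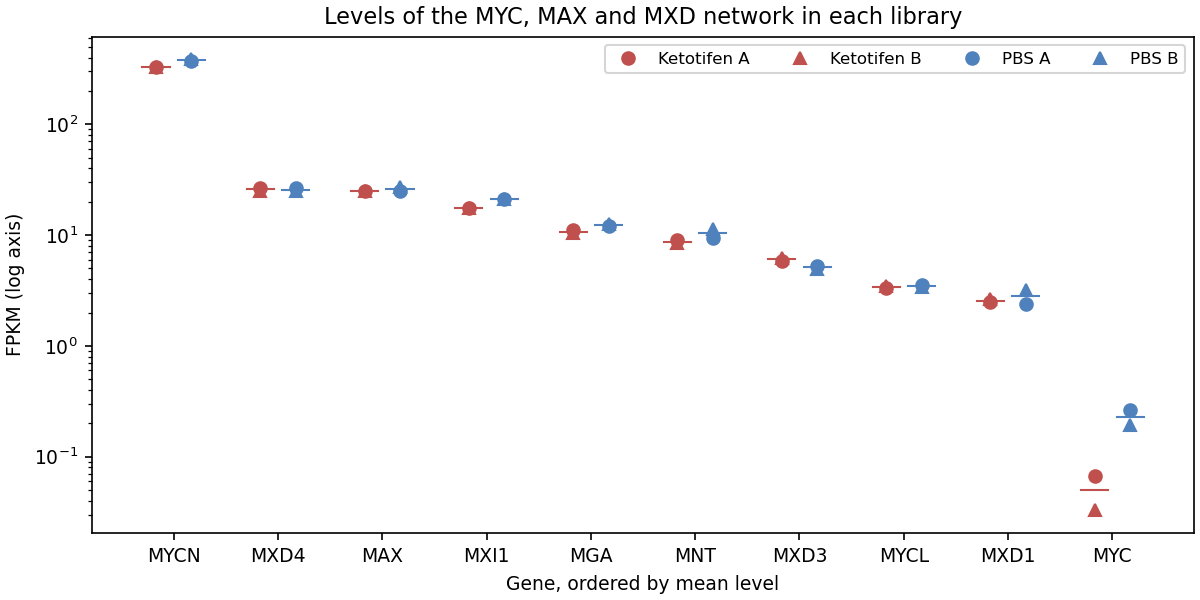
FPKM (log axis) of the 10 network members, ordered by mean level, in each library, with ketotifen left of PBS; circles are libraries A, triangles libraries B, and bars the group means. MYCN stands at 326.6 to 386.5 FPKM and MYC at 0.0328 to 0.263 FPKM, with the other members between 2.39 and 26.9 FPKM.

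FPKM is scaled by length, so levels of different genes can be set side by side as far as those lengths hold. By GENCODE 29 exon lengths, 63.4% of 10374 tested genes lay within 0.5 log2 units of a common depth, and using those lengths multiplied the members' levels by 0.684 (MXD3) to 1.92 (MYC). MYCN made up 99.0% of the summed MYCN, MYC and MYCL level in both ketotifen libraries, against 99.0% and 99.1% in the PBS libraries. The summed level of the 3 MYC genes was 13.3 ± 0.209 times that of MAX with ketotifen and 14.7 ± 0.355 times with PBS (SD, n = 2 libraries each). Against the summed level of the repressors MXD1, MXD3, MXD4, MXI1, MNT and MGA it was 4.64 ± 0.16 times with ketotifen and 4.93 ± 0.0795 times with PBS. With GENCODE 29 lengths the ratio to MAX was 18.5 ± 0.291 with ketotifen and 20.6 ± 0.498 with PBS, and that to the repressors 6.56 ± 0.223 with ketotifen and 6.81 ± 0.0233 with PBS. With either set of lengths the MYC genes had far more RNA than their common partner in both groups. The difference of these ratios between groups was not tested.

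None of the 9 tested members passed the threshold in the main test, limma on log2(FPKM + 1) at an adjusted p under 0.05. It called 0.123% of all tested genes, 1 of them (0.00945%) higher and 12 (0.113%) lower with ketotifen. An unadjusted p under 0.05 was reached by 5 of the 9 members, MYCN, MXI1, MNT, MGA and MXD3, and by 20.4% of all tested genes. With voom on the recovered reads, 2 of the 9 members fell, MYCN and MXI1, and none rose. Voom called 2.4% of all tested genes lower and 3.74% higher. The groups did not overlap for MYCN, MXI1, MNT and MGA, all lower with ketotifen, and for MXD3, higher with ketotifen. The same held for 54.4% of all tested genes, 31.2% in the lower and 23.2% in the higher direction, so such a separation is common in these libraries.

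**Figure D2:**
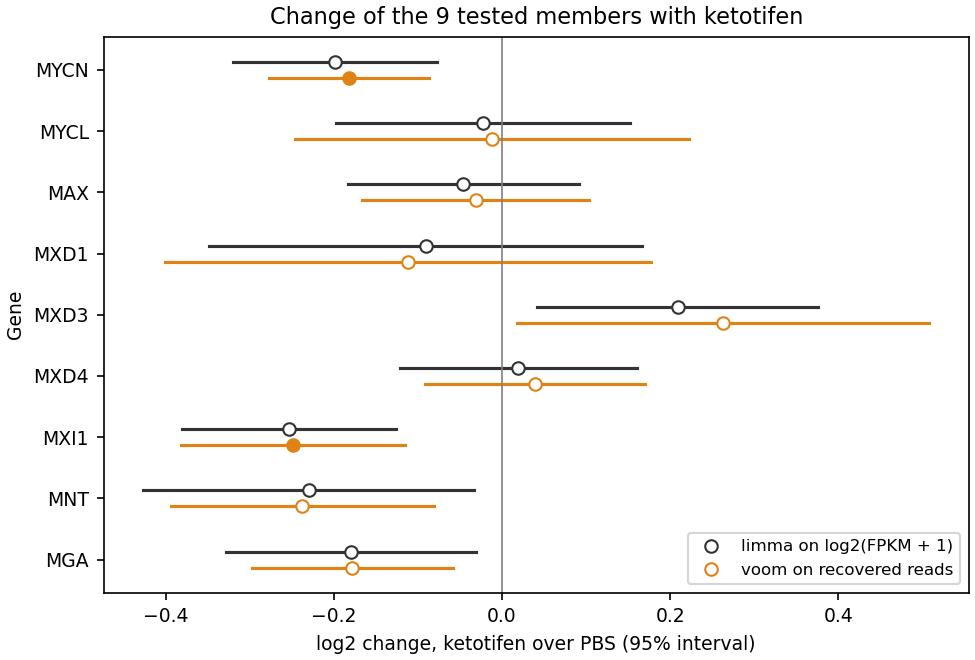
Log2 change with ketotifen over PBS (x axis, 95% interval) of the 9 tested members, by limma on log2(FPKM + 1) in black and by voom on recovered reads in orange; filled points have an adjusted p under 0.05. MYCN (-0.18) and MXI1 (-0.25) are filled under voom, and no point is filled under limma.

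Of the activating arm, MYCN encodes N-Myc, here the most abundant member. Its mean level was 329 ± 3.85 FPKM with ketotifen and 378 ± 11.9 FPKM with PBS (SD, n = 2 libraries each), 12.9% lower with ketotifen. Both ketotifen libraries lay below both PBS libraries. The log2 change was -0.20 ± 0.05 (SE), with a 95% interval of -0.32 to -0.08 and a limma adjusted p of 0.123. With voom it was -0.18 ± 0.04 (SE, adjusted p = 0.0236). The voom call was lost without ketotifen library A (adjusted p = 0.51) and without ketotifen library B (adjusted p = 0.325). These values rested on 31319 and 29293 recovered reads with ketotifen and on 31754 and 35103 with PBS. MYCN spans 15940550 to 15947004 on chromosome 2 in GRCh38.p14. The values do not separate RNA of the introduced N-Myc copy and of the endogenous gene. In bulk RNA, fewer cells that express a gene and less RNA per cell cannot be told apart.

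The genes beside MYCN on chromosome 2 had other levels. DDX1, an RNA helicase gene often amplified with MYCN in neuroblastoma, lies at 15591868 to 15631101 and had 69.3 and 64.7 FPKM with ketotifen, against 60.2 and 59.6 FPKM with PBS (limma adjusted p = 0.184, voom adjusted p = 0.0643). MYCN was at 4.71 and 5.13 times the FPKM of DDX1 with ketotifen and at 6.14 and 6.49 times with PBS, or at 7.30 and 7.96 times with ketotifen and 9.52 and 10.1 times with PBS by GENCODE 29 lengths. NBAS, a gene of Golgi-to-endoplasmic-reticulum transport at 14778909 to 15561334, had 7.94 and 8.21 FPKM with ketotifen and 8.55 and 7.70 FPKM with PBS. CYRIA, a regulator of the actin network on the far side of MYCN at 16549459 to 16665834, had 8.01 and 8.49 FPKM with ketotifen and 8.80 and 8.31 FPKM with PBS. So DDX1 separated in the direction opposite to MYCN, while the libraries of NBAS and of CYRIA overlapped between groups. None of the 3 neighbours passed in either test.

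MYC was close to undetected beside MYCN. It was measured at 0.0663 and 0.0328 FPKM in the ketotifen libraries, against 0.263 and 0.191 FPKM in the PBS libraries. The recovered reads were 11 (95% exact Poisson interval 5.49 to 19.7) and 5 (1.62 to 11.7) with ketotifen, and 39 (27.7 to 53.3) and 30 (20.2 to 42.8) with PBS. Every ketotifen interval ended below every PBS interval, as the plot of MYC reads shows. These intervals cover counting error only, which leaves out any spread between cultures. The mean level was 0.0496 ± 0.0237 FPKM with ketotifen and 0.227 ± 0.0506 FPKM with PBS, a ratio of 0.218. MYC lay below the level filter of the main test. A voom fit took the 12746 genes with a mean of at least 10 recovered reads over all libraries, a filter chosen after the data were seen. MYC passed this filter only through its PBS reads, since its ketotifen reads averaged under 10. For MYC the fit is therefore a description and not a test. It gave a log2 change of -2.14 ± 0.62 (SE), with a 95% interval of -3.48 to -0.80 and an adjusted p of 0.075, short of the threshold. That fit called 3.84% of its genes, 1.3% lower and 2.54% higher, with MYCN (adjusted p = 0.0432) and MXI1 (adjusted p = 0.046) again past the threshold. MYC spans 127735434 to 127742951 on chromosome 8.

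**Figure D3:**
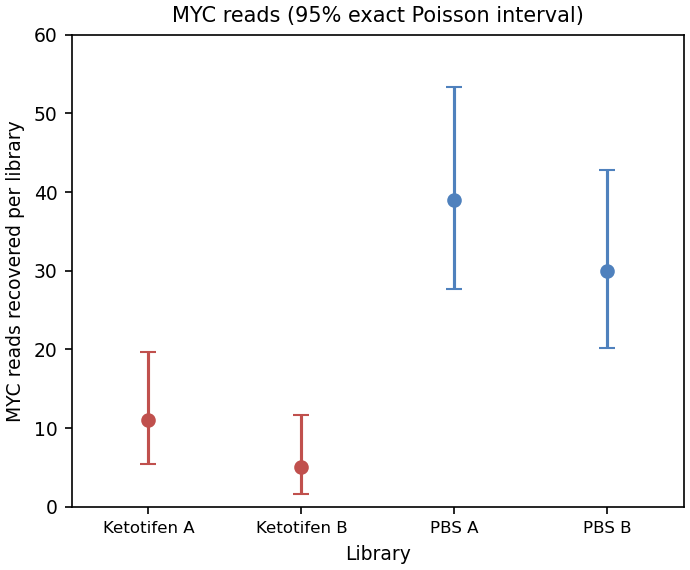
MYC reads recovered per library (y axis) with 95% exact Poisson intervals, ketotifen libraries left of PBS libraries. The ketotifen libraries hold 11 and 5 reads and the PBS libraries 39 and 30.

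MYCL, the third MYC gene, known from small cell lung cancer, had 3.33 and 3.46 FPKM with ketotifen and 3.54 and 3.39 FPKM with PBS. The groups overlapped. Its log2 change was -0.02, with a 95% interval of -0.20 to 0.15 (limma adjusted p = 0.891).

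MAX, the shared partner, had 25.1 and 25.0 FPKM with ketotifen, against 24.9 and 26.9 FPKM with PBS. Only PBS library B stood apart, and the change was -0.05 with a 95% interval of -0.18 to 0.09 (limma adjusted p = 0.694). Without PBS library B it was 0.0081. MAX lies on chromosome 14 (65006101 to 65102695).

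Within the repressor arm, MXI1 had the smallest p. MXI1 competes with MYC proteins for MAX and is known to be induced in low oxygen. It had 17.7 and 17.6 FPKM with ketotifen, against 21.2 and 21.3 FPKM with PBS. The libraries of each group were nearly equal, and the groups were apart. The mean was 17.6 ± 0.135 FPKM with ketotifen and 21.2 ± 0.0946 FPKM with PBS, 16.8% lower with ketotifen. The log2 change was -0.25 ± 0.06 (SE), with a 95% interval of -0.38 to -0.13, a limma adjusted p of 0.102 and a voom adjusted p of 0.0275. Like that of MYCN, the voom call was lost without ketotifen library A (adjusted p = 0.291) and without ketotifen library B (adjusted p = 0.261). MXI1 lies on chromosome 10 (110207605 to 110287365), and its second annotated start is the one printed above with both hypoxia core letters. A window of MGA holds both as well, and whether these letters bear on the levels was not tested.

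By FPKM, MXD4 had the highest level among the repressors. It had 26.8 and 25.1 FPKM with ketotifen and 26.4 and 24.8 FPKM with PBS, so library A was the higher one in each group and the groups overlapped. The log2 change was 0.02, with a 95% interval of -0.12 to 0.16 (limma adjusted p = 0.881), and was negative after scaling to equal sums (-0.031). The level of MXI1 was 0.663 and 0.698 times that of MXD4 with ketotifen and 0.803 and 0.858 times with PBS. By GENCODE 29 lengths the order of these genes turned, and MXI1 was at 1.01 and 1.06 times the level of MXD4 with ketotifen and at 1.22 and 1.30 times with PBS. MXD4 and MXI1 together held 61.1% and 60.5% of the summed repressor level with ketotifen, against 62.0% and 58.9% with PBS.

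MXD3, a repressor known from proliferating cells, was the single member with higher values in both ketotifen libraries. It had 5.86 and 6.27 FPKM with ketotifen, against 5.25 and 4.98 FPKM with PBS, 18.7% higher by the means. The log2 change was 0.21 ± 0.07 (SE), with a 95% interval of 0.04 to 0.38 and a limma adjusted p of 0.181. Voom gave 0.26 ± 0.12 (adjusted p = 0.184), on 595 and 585 reads with ketotifen and 477 and 478 with PBS. MXD3 lies on chromosome 5 (177305499 to 177312752). MXD1, a repressor known from differentiating cells, had 2.47 and 2.63 FPKM with ketotifen and 2.39 and 3.21 FPKM with PBS. The ketotifen libraries lay between the PBS libraries, and the change of -0.09 (95% interval -0.35 to 0.17) was 0.066 without PBS library B.

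MNT and MGA, the large MAX partners, were both lower without passing. MNT, a broadly expressed repressor, had 8.94 and 8.42 FPKM with ketotifen, against 9.50 and 11.3 FPKM with PBS. The spread between the PBS libraries was wider than the gap between PBS library A and the ketotifen libraries. The change was -0.23 ± 0.09 (SE, limma adjusted p = 0.2, voom adjusted p = 0.0658). It was -0.12 without PBS library B and -0.34 without PBS library A, where it passed the threshold (limma adjusted p = 0.00399). MGA had 11.0 and 10.5 FPKM with ketotifen, against 12.0 and 12.7 FPKM with PBS, with the groups apart. Its change was -0.18 ± 0.06 (SE, limma adjusted p = 0.191, voom adjusted p = 0.0709). MNT lies on chromosome 17 (2384073 to 2401060) and MGA on chromosome 15 (41621224 to 41769940).

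The genes whose profile over the 4 libraries was most like that of MYCN were taken from the 7722 genes averaging 5 FPKM or more, by the Euclidean distance of the centred log2(FPKM + 1) values. GTF2IRD1, a transcription factor of the TFII-I family, was the nearest (distance 0.00613), with 5.97 and 6.10 FPKM under ketotifen and 6.92 and 7.29 FPKM under PBS. ZNHIT6, a factor of small nucleolar RNP assembly, followed at 0.0111, and MOB1A, a kinase coactivator of the Hippo pathway, at 0.0126. HBS1L, a ribosome rescue GTPase, was at 0.014 and CAMSAP3, which binds microtubule minus ends, at 0.0151. With 4 libraries this likeness is a description only.

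Around the network, 9 of the 90 tested genes of the other lists were called by voom, 4 higher and 5 lower, and 1 by limma, NDRG1. Over all tested genes the shares called were 6.14% by voom, 3.74% higher and 2.4% lower, and 0.123% by limma. Each list is given by its counts and its median log2 change in limma, beside a median of -0.02 over all tested genes. In the MLX and Mondo arm, the related sugar-sensing branch that shares partners with the MXD proteins, 4 of 5 genes were lower in both ketotifen libraries, as were 31.2% of all tested genes, with a median of -0.20. TXNIP, a Mondo target that restrains glucose uptake, had 39.1 and 37.1 FPKM with ketotifen, against 45.8 and 47.6 FPKM with PBS. The groups were apart, and TXNIP fell under voom only (voom adjusted p = 0.0108, limma adjusted p = 0.0968). ARRDC4, a related arrestin and Mondo target, had 11.2 and 12.0 FPKM with ketotifen and 12.9 and 14.2 FPKM with PBS, and MLXIPL, which encodes ChREBP, had 3.65 and 4.20 FPKM with ketotifen and 4.29 and 5.76 FPKM with PBS. Neither passed. MLX, the MAX-like partner, overlapped between groups, at 41.2 and 39.5 FPKM with ketotifen and 37.1 and 40.1 FPKM with PBS.

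Of 13 MYC cofactors none passed in either test, with a median of -0.03. EP400, the ATPase of an acetyltransferase complex, had 13.2 and 14.2 FPKM with ketotifen and 15.3 and 16.3 FPKM with PBS. HCFC1, a chromatin factor that binds MYC, had 42.9 and 48.1 FPKM with ketotifen and 49.3 and 56.4 FPKM with PBS. RUVBL1, an AAA+ ATPase, went the other way, at 59.9 and 58.5 FPKM with ketotifen and 55.4 and 52.0 FPKM with PBS. Of 8 corepressor genes of SIN3 and NCoR complexes none passed in limma, and the median was -0.07. SIN3A, the scaffold that MXD proteins bind, had 10.9 and 9.31 FPKM with ketotifen and 11.3 and 12.2 FPKM with PBS. NCOR1, a corepressor of nuclear receptors, had 21.0 and 21.6 FPKM with ketotifen and 22.9 and 23.8 FPKM with PBS.

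The 9 polycomb partners of MGA had a median of 0.10, where MGA itself was lower. CBX3, the chromodomain subunit HP1-gamma, had 89.5 and 84.3 FPKM with ketotifen and 77.0 and 73.2 FPKM with PBS, and rose under voom (voom adjusted p = 0.0192, limma adjusted p = 0.131). PCGF6, the subunit that defines this complex, had 4.46 and 5.54 FPKM with ketotifen and 3.77 and 4.23 FPKM with PBS (limma adjusted p = 0.214). RYBP, an adaptor of the complex, had 10.3 and 9.71 FPKM with ketotifen and 11.6 and 11.0 FPKM with PBS. Of 11 regulators of MYC protein turnover none passed in either test, and the median was -0.10. Among them were HUWE1, a ubiquitin ligase of N-Myc, with 39.0 and 39.3 FPKM under ketotifen and 42.6 and 44.4 FPKM under PBS, and AURKA, the kinase that stabilises N-Myc, with 38.0 and 40.2 FPKM under ketotifen and 41.7 and 43.1 FPKM under PBS. GSK3B, which marks MYC proteins for degradation, had 11.6 and 11.5 FPKM with ketotifen and 12.1 and 13.4 FPKM with PBS. Of 7 other E-box leucine zipper factors none passed in either test, with a median of -0.08. SREBF2 of the sterol pathway had 54.2 and 52.1 FPKM with ketotifen and 57.0 and 57.4 FPKM with PBS. USF2 had 34.9 and 37.0 FPKM with ketotifen and 38.1 and 39.6 FPKM with PBS, and TFEB, a lysosomal regulator, overlapped between groups at 1.32 and 1.57 FPKM with ketotifen and 1.52 and 2.04 FPKM with PBS.

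Of 23 tested genes known to be induced by MYC or N-Myc none passed in limma, and the median was 0.07. Under voom 3 rose (CDK4, NOP56 and BOP1) and 1 fell (PTMA). In the voom fit of genes with a mean of at least 10 reads, the calls of BOP1 (adjusted p = 0.0697) and PTMA (adjusted p = 0.0644) were lost. CDK4, the G1 cyclin-dependent kinase, had 95.6 and 94.1 FPKM with ketotifen, against 81.5 and 70.8 FPKM with PBS (voom adjusted p = 0.00651, limma adjusted p = 0.102). NOP56, a nucleolar protein of ribosome production, had 210.7 and 215.4 FPKM with ketotifen and 192.2 and 191.3 FPKM with PBS, and BOP1, of the same process, had 99.2 and 100.2 FPKM with ketotifen and 93.6 and 77.4 FPKM with PBS. These 3 were higher in both ketotifen libraries, though the PBS libraries of BOP1 differed from each other by more than PBS library A did from the ketotifen libraries. PTMA, which encodes prothymosin alpha, had 2493 and 2535 FPKM with ketotifen and 2737 and 2948 FPKM with PBS (voom adjusted p = 0.0398). LDHA, lactate dehydrogenase, had 432.6 and 413.2 FPKM with ketotifen and 482.2 and 461.7 FPKM with PBS, without passing. Of the 23 genes, 13 were higher in both ketotifen libraries than in both PBS libraries, and 5 were lower in both. Over all tested genes these shares were 23.2% higher and 31.2% lower. The plot of list members shows changes on both sides of 0, and any link to the level of MYCN was not tested.

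Genes known to be repressed by MYC or N-Myc had 4 tested members with a median of -0.12. NDRG1, named for being kept low by N-Myc and also induced in low oxygen, had 2.31 and 1.93 FPKM with ketotifen, against 5.35 and 5.81 FPKM with PBS, and fell in both tests (limma adjusted p = 0.0112, voom adjusted p = 1.98e-05). NDRG4, of the same family, had 1.38 and 1.27 FPKM with ketotifen and 1.74 and 1.55 FPKM with PBS, without passing. GADD45A, a stress gene, had 66.5 and 63.2 FPKM with ketotifen and 66.5 and 68.9 FPKM with PBS. NDRG1 and MYCN were both lower, MYCN passing under voom only, and a link between them was not tested.

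**Figure D4:**
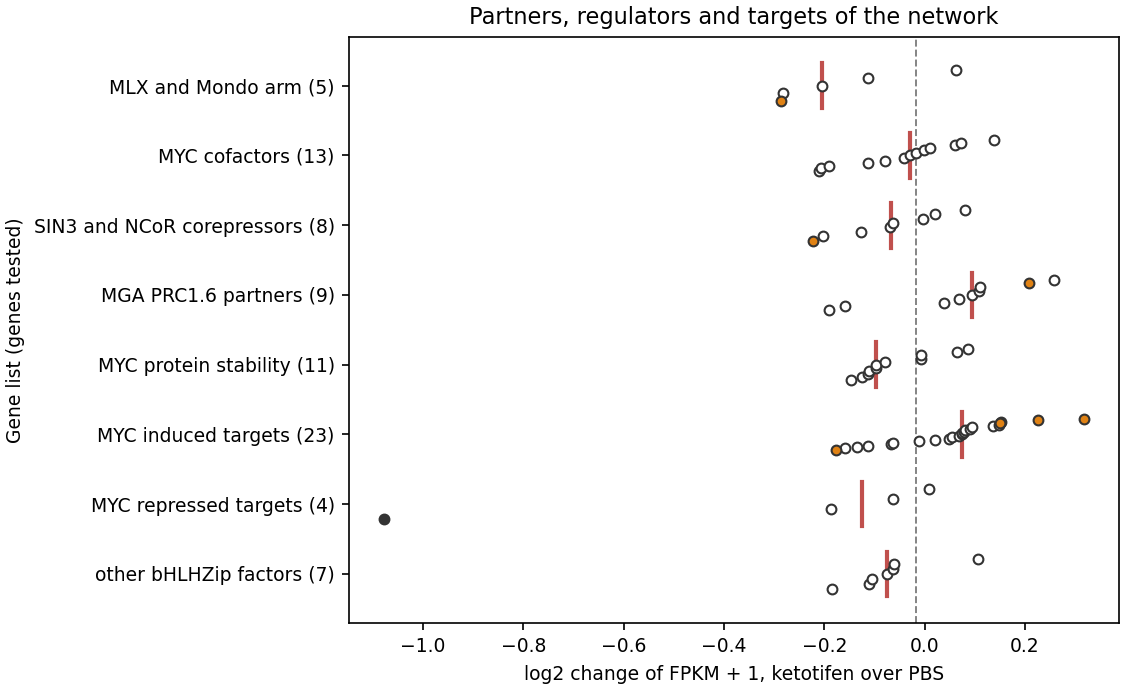
Log2 change of FPKM + 1 with ketotifen over PBS (x axis) of each tested gene in 8 lists around the network; red bars are list medians and the dashed line is the median of all tested genes (-0.02). Black points have an adjusted p under 0.05 in limma (NDRG1, at -1.08), orange points in voom only.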

How the data were processed

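The members and gene lists were chosen with earlier results of these data known. RNA of 4 LASCPC-01 libraries was sequenced as 150 bp read pairs from a stranded mRNA kit, per the labels' protocols. Per the submitters' processing notes the tools were fastp, HISAT2 and HTSeq and the build GRCh38. No source used here gives the annotation, gene lengths or strand setting, and overlapping genes therefore cannot be told apart. The authors deposited FPKM values, 1 column per library.

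Genes averaging at least 1 FPKM were tested two-sided with limma 3.58.1 (R 4.3.3, intensity trend) on log2(FPKM + 1), with Benjamini-Hochberg adjustment over all 10586. Fold changes are ketotifen over PBS and understate those of low genes. Values carry 10 significant digits and at most 9 decimals. Within a gene they lie on a grid whose step is the worth of 1 read (tolerance 0.05 reads), and reads were so recovered for 100.0% of tested genes, up to a common factor per gene, and for 0 of 500 decoys. They were tested with voom, scaled by trimmed means of M values. Sequences and coordinates are RefSeq's (GRCh38.p14). List genes were named by a rule: the 3 smallest p per list, and those called; some of the genes it takes up are not reported here.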

Additional observations from a re-analysis of the deposited data

How the results depend on the processing

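The number of genes past the threshold, 13 at the main settings, was 0 with no filter (2295 genes at an unadjusted p under 0.05), 27 with a mean of at least 5 FPKM (15 higher, 12 lower), 3 after median ratio scaling, 3 after quantile normalization and 650 under voom, or 490 under voom with a mean of at least 10 reads. Leaving out 1 library gave 10 to 1936 genes in limma, and 138 to 2095 genes in voom, where this and the fit by reads were chosen after the data were seen. Among the network members, 0 passed in limma and 2 (MYCN and MXI1) in voom and in voom with a mean of at least 10 reads. Leaving out 1 library gave 0 to 3 members in limma and 0 to 4 in voom, with none when a ketotifen library was left out and 2 or more when a PBS library was. Without PBS library A, limma called 3 members and voom 4. Without PBS library B both called 2, MYCN and MXI1. Of the 90 list genes 1 passed in limma, 9 in voom and 6 (of 96) with a mean of at least 10 reads, and 2 to 34 when voom left out 1 library.

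The column letters do not pair the libraries by any label, and same-letter deviations from the group means correlated at 0.102. With the letter as a replicate block, limma called 637 genes and 1 member, MXI1 (adjusted p = 0.0332).

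Over 18 alternatives MYCN ranged from -0.31 to -0.16, MXI1 from -0.30 to -0.21, MNT from -0.35 to -0.12, MGA from -0.23 to -0.14 and MXD3 from 0.13 to 0.31 on the log2 scale. These 5 kept their direction, which groups that do not overlap fix in part, since leaving out a library cannot turn it. Changes near 0 turned sign. MYCL was 0.038 after quantile normalization and MXD4 was -0.031 with equal sums. With 1 library left out, over both tests, MYCL ran from -0.048 to 0.027, MXD4 from -0.024 to 0.092, MAX from -0.10 to 0.020 and MXD1 from -0.31 to 0.10. The cause was not tested.

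Each group has 2 libraries, so the spread is estimated from few values, and MYC rests on at most 39 reads per library.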
